A study of Mus musculus with 12 samples.

Results

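A group of imprinted genes with roles in growth was followed through the developing mouse cochlea, in otic mesenchyme (OM), glia, spiral ganglion neurons (SGNs) and hair cells (HCs). The genes were H19, Igf2, Mest, Peg3, Dlk1, Meg3, Cdkn1c, Plagl1, Grb10 and Ndn. They were taken by name from the count table and are 10 of its 24489 genes. The study sorted tdTomato-positive cells from the cochlea, 1 cell to a well, and sequenced polyA RNA with Smart-seq2, a full-length method without molecular identifiers. There were 12 plates of 384 wells, each plate being 1 sample and the replicate of every test.

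There were 3 plates of E16.5, 1 of E17.5, and 2 each of P3, E18.5, E15.5 and E14.5. The mice were labelled PVcre;Ai14 on 11 plates, which carry a Cre driven by parvalbumin and a tdTomato reporter switched on by Cre. E14.5 replicate 2 was labelled TrkCcre, a Cre driven from Ntrk3, and the design text names that driver for E14.5 as a whole. No plate carried a mutation of a gene studied here, every plate pooled cells of several animals, and the sort was for tdTomato, from lines chosen to label SGNs and HCs, so that OM and glia were not its aim. The tissue was the opened cochlea's modiolus at E14.5 and E15.5 and the spiral ganglion at later stages. The mice were kept on 1 inbred background, so the reads could not tell the maternal from the paternal copy, and every value below is the sum of both.

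Imprinted genes are transcribed mainly from the copy inherited from 1 parent, a state set by DNA methylation at control regions in the egg or sperm. Many of them act on growth before birth. In general, paternally expressed genes such as Igf2, Mest, Peg3, Dlk1 and Plagl1 act in the growth and progenitor programmes of the embryo, and maternally expressed genes such as H19, Cdkn1c and Grb10 restrain growth. Grb10 is an exception in neurons, where the paternal copy is used, and the levels of many of these genes are known to fall together in most tissues after birth.

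The genes lie in several imprinted clusters of the mm10 build. H19, a long non-coding RNA (chr7:142575529-142578143, minus strand), and Igf2, which encodes insulin-like growth factor 2 (chr7:142650766-142666816, minus strand), are 72.6 kb apart. Cdkn1c (chr7:143458339-143461050, minus strand) lies 791.5 kb from Igf2. Dlk1 (chr12:109452823-109463336, plus strand) and the long non-coding RNA Meg3 (chr12:109541001-109571726, plus strand) are 77.7 kb apart. The others stand in clusters of their own, Mest at chr6:30723547-30748465 (plus strand), Peg3 at chr7:6703892-6730431 (minus), Plagl1 at chr10:13060504-13131694 (plus), Grb10 at chr11:11930508-12038683 (minus) and Ndn at chr7:62346569-62350262 (plus).

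H19 and Mest each hold a microRNA whose mature forms are shown, and both hosts differed between classes of cells. Igf2 and Meg3, whose largest differences between classes were larger, also hold microRNAs, which are not shown. miR-675 lies in H19 at chr7:142577078-142577133 and miR-335 lies within the Mest gene at chr6:30741314-30741375. The sequences are those of RefSeq on GRCm38.p6, written 5′ to 3′, with the seed, bases 2 to 8, in capitals. The 4 seeds differed from each other.
mmu-miR-675-5p: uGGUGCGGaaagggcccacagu
mmu-miR-675-3p: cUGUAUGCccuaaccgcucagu
mmu-miR-335-5p: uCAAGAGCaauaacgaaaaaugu
mmu-miR-335-3p: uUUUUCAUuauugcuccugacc

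The promoters of 3 members are shown because these paternally expressed members were higher together in OM-like than in SGN-like cells and because their windows hold motifs tied to imprinting. Each window runs from 250 bases before to 50 bases after a RefSeq transcript start (GRCm38.p6) and is printed on the gene's own strand. Capitals mark TGCCGC on either strand, the hexamer bound by the imprint-maintaining protein ZFP57, and the consensus of PLAGL1, the zinc-finger protein that Plagl1 itself encodes. The Mest window (chr6:30737800-30738099) holds TGCCGC at 2 places, the Plagl1 window (chr10:13090582-13090881) holds both motifs, and the Peg3 window (chr7:6730370-6730669, minus strand) holds the PLAGL1 consensus.
Mest: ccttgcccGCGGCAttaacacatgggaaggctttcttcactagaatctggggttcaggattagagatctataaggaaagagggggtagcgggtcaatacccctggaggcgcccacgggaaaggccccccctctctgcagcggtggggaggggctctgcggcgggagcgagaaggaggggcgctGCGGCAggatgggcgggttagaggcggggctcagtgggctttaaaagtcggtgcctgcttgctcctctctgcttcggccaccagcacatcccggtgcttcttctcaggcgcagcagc
Plagl1: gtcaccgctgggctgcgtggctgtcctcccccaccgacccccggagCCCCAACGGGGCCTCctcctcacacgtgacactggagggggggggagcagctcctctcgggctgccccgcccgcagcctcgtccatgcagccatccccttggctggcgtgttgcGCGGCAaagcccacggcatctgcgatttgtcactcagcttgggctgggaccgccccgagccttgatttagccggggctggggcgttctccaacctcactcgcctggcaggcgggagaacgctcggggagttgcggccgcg
Peg3: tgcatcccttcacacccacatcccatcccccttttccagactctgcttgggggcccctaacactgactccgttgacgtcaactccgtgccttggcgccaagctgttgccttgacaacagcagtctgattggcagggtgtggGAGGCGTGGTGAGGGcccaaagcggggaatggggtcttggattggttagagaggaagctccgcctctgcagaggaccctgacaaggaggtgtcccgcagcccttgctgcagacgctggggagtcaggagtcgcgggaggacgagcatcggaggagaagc

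Of the 10 genes, 8 had promoters in the reference, 15 windows in all, and H19 and Cdkn1c had none. TGCCGC was in 6 of the 15, belonging to Grb10, Igf2, Meg3, Mest and Plagl1 and counting 2 overlapping Mest windows that share the same matches, against 11.6% of all 32851 promoters of this length. The PLAGL1 consensus was in 2 of 15, against 10.1% of all promoters. AANATGGC, the YY1 motif repeated in some imprinted control regions, was in 0 of 15, against 6.05%. These matches describe letters in a window and not bound sites.

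Of 4608 wells, 4226 passed the filters of over 1000 genes and under 5% spike-in counts. They held 2308 SGN-like cells, 1112 glia-like cells, 525 OM-like cells, 75 HC-like cells and 206 cells left unnamed, named from markers after clustering without the 10 genes. Each class carried its own markers, with 8244 to 21307 CPM (counts scaled to a common library size) of 9 OM markers in OM-like sums, 5732 to 9404 of 8 glial markers in glia-like sums, 13229 to 20175 of 10 neuronal markers in SGN-like sums and 6562 to 9280 of 9 hair cell markers in HC-like sums. Kept cells held 80997594 to 303906928 counts per plate and a median of 232473 to 1092427 counts per cell. Counts were summed per class and plate, which gave 29 sums, and levels are CPM after TMM scaling. CPM is not per transcript length, so levels are compared between cells for 1 gene and not between genes. OM-like and glia-like sums at E16.5 came from replicate 3 alone, the glia-like sum at E18.5 held 5 cells, and the HC-like sums at E16.5 held 4 cells each.

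Some SGN-like sums stood apart by what they held of other cells. The summed glial markers were 17.0 to 104 CPM on the 6 plates of 1 plate series, which covers E14.5, E15.5, E16.5 replicate 3 and E17.5. They were 693 and 581 in E16.5 replicates 1 and 2, 2579 and 2529 at E18.5, and 3812 and 4248 at P3. E18.5 and P3 were each run in a plate series of their own, so stage and plate series cannot be told apart there.

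**Figure D1:**
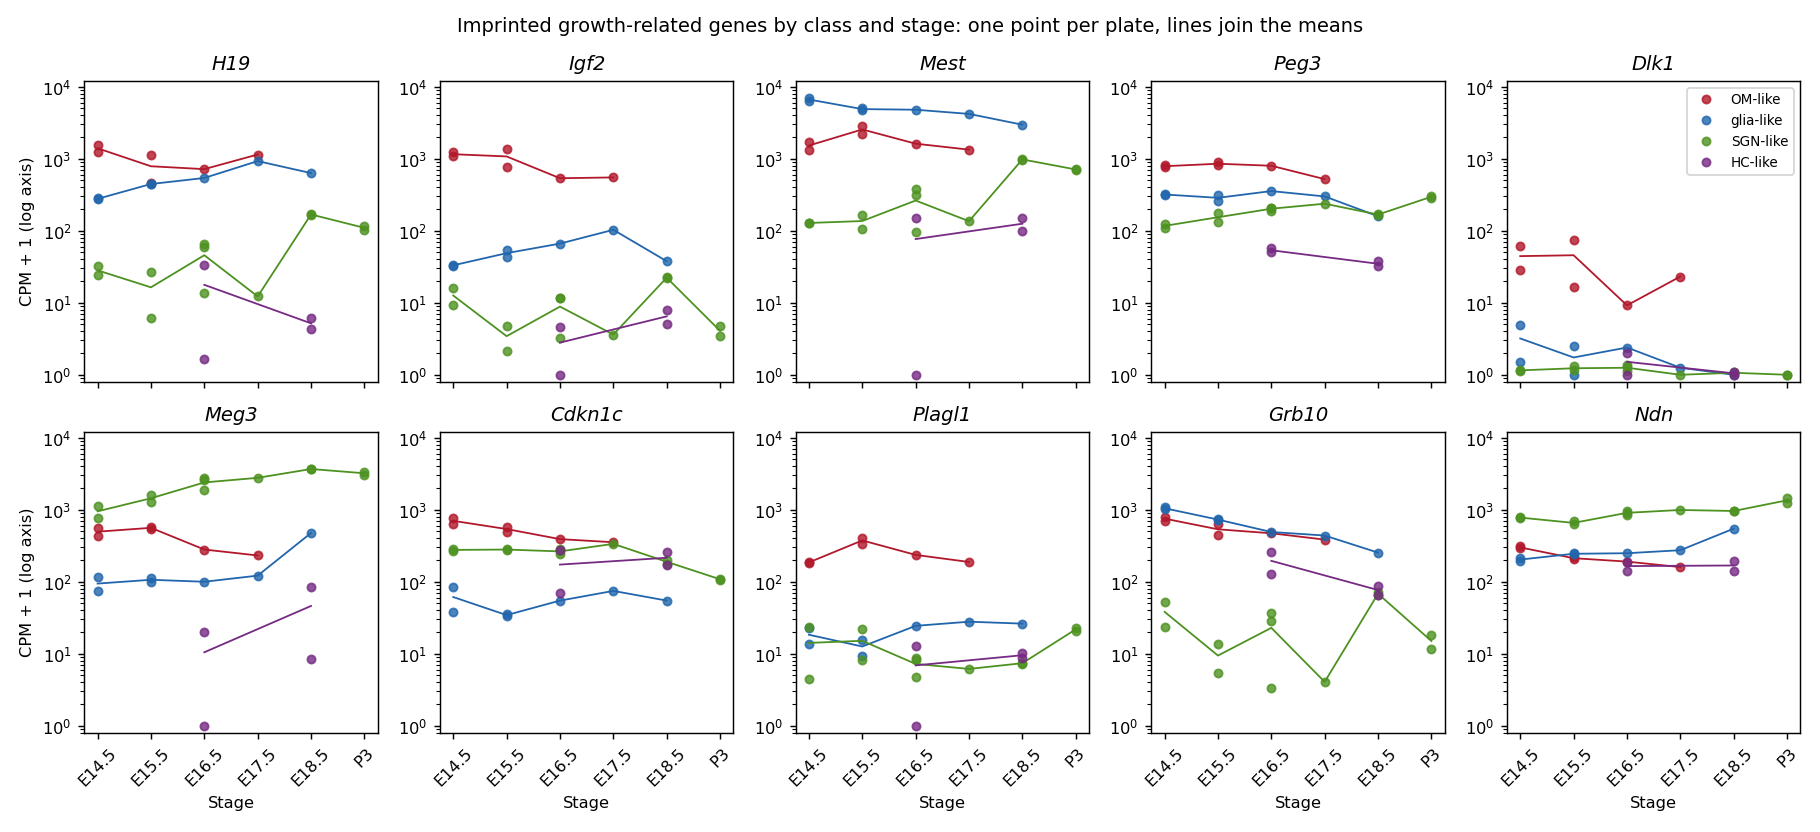
Level of each gene by stage in OM-like, glia-like, SGN-like and HC-like cells; the y axis is CPM plus 1 on a log scale, each point is the sum of 1 plate and lines join the means of a stage. The highest sums of H19, Igf2, Dlk1 and Plagl1 were OM-like, that of Mest was glia-like, and those of Meg3 and Ndn were SGN-like.

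Mesenchyme and glia carried most of these genes at higher levels than neurons of the same stages. In OM-like against SGN-like cells from E14.5 to E16.5, all 10 genes passed the test, 8 higher (H19, Igf2, Mest, Peg3, Dlk1, Cdkn1c, Plagl1 and Grb10) and 2 lower (Meg3 and Ndn). In glia-like against SGN-like cells 9 passed, 6 higher (H19, Igf2, Mest, Peg3, Dlk1 and Grb10) and 3 lower (Meg3, Cdkn1c and Ndn). In OM-like against glia-like cells 6 were higher (Igf2, Peg3, Dlk1, Meg3, Cdkn1c and Plagl1) and none was lower.

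These counts stand against the share of all 18686 genes tested that passed. Of all genes, 37.1% passed in OM-like against SGN-like cells, 16.9% higher and 20.2% lower. In glia-like against SGN-like cells 36.4% passed, 17% higher and 19.4% lower. In OM-like against glia-like cells 13.1% passed and 6.69% were higher. The median log2 difference over the 10 genes was 4.03, 1.84 and 1.73 in these comparisons, against -0.20, -0.05 and -0.09 over all genes. The comparisons share sums, OM-like and glia-like against the same SGN-like sums, so their counts are not independent. Each p is from edgeR's quasi-likelihood test on the sums, adjusted by Benjamini-Hochberg over all genes and called under 0.05, and the plates measure spread between pooled preparations.

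**Figure D2:**
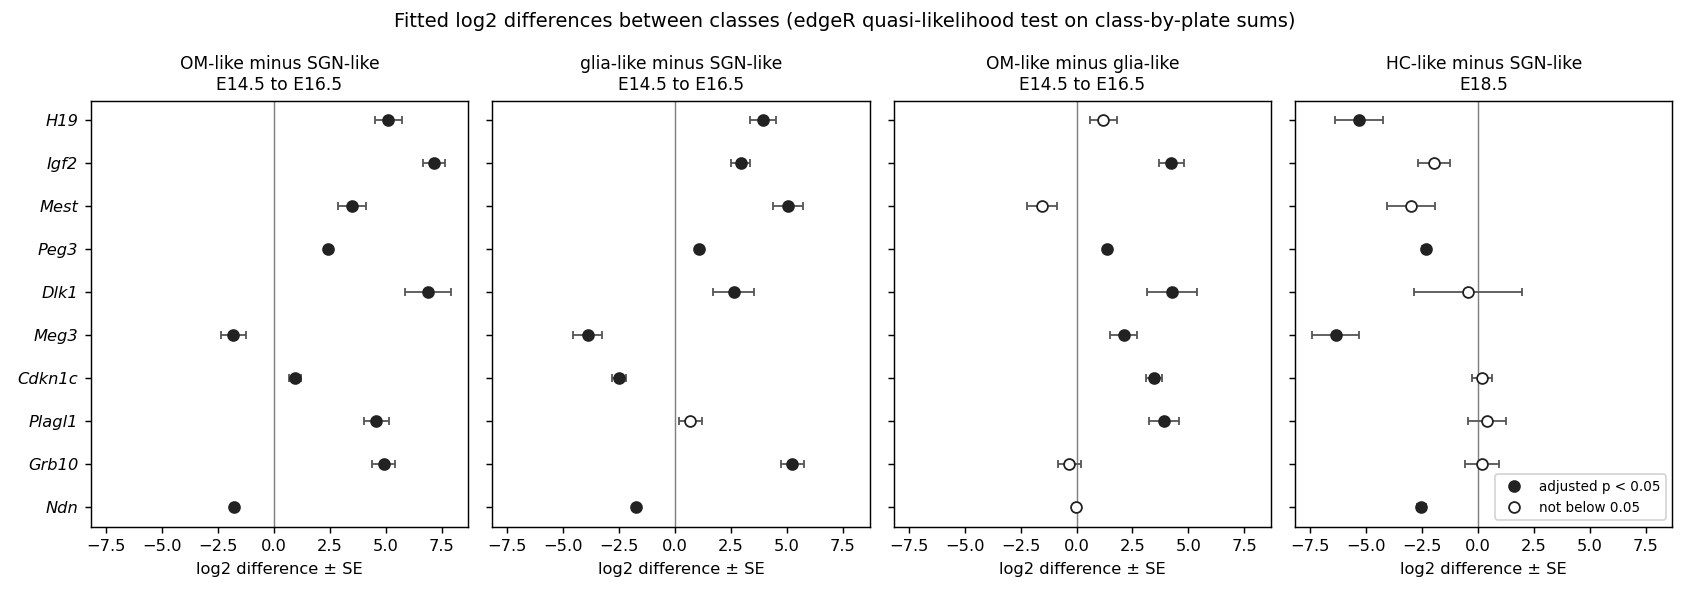
Fitted log2 difference of each gene with its SE in 4 comparisons of classes; filled points passed an adjusted p of 0.05 and open points did not. Igf2 and Dlk1 lie farthest to the right in OM-like minus SGN-like cells, at 7.16 and 6.89, and Meg3 farthest to the left in HC-like minus SGN-like cells, at -6.35.

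Igf2, the fetal growth factor of the group, was highest in mesenchyme. The OM-like sums held 1081 and 1229 CPM at E14.5, 773 and 1378 at E15.5, 535 at E16.5 and 549 at E17.5. In glia-like sums it was 31.8 and 32.4 CPM at E14.5, 42.7 and 53 at E15.5, 65.3 at E16.5, 102 at E17.5 and 36.8 at E18.5. In SGN-like sums Igf2 was 8.35 and 14.9 CPM at E14.5, 1.11 and 3.76 at E15.5, 10.7, 10.5 and 2.24 at E16.5, 2.61 at E17.5, 21.5 and 21.1 at E18.5, and 3.75 and 2.4 at P3. The lowest OM-like sum was above 5 times the highest glia-like sum, and no SGN-like sum reached the lowest glia-like sum. Igf2 was 143.4-fold higher in OM-like than in SGN-like cells (log2 difference 7.16 ± 0.50, SE, adjusted p = 4.91e-08; 5 against 7 sums) and 18.8-fold higher than in glia-like cells (log2 difference 4.23 ± 0.55, SE, adjusted p = 8.86e-05). Glia-like cells exceeded SGN-like cells by 7.64-fold (adjusted p = 4.63e-05), a call that held in 26 of 26 alternatives. The 9 OM markers summed to 1374 to 1823 CPM in the glia-like sums of E14.5 to E16.5, against 8244 to 19211 in OM-like sums. In glia-like cells below each sum's median for counts of other classes' markers, Igf2 was 15.52 and 30.6 CPM at E14.5. At E15.5 it was 40.9 and 29.8 in such cells and at E16.5 63.9. The part of OM RNA in glia-like Igf2 was not tested.

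H19, transcribed from the maternal copy beside Igf2 and cut in part to miR-675, was high in both OM-like and glia-like cells. In OM-like sums H19 was 1242 and 1551 CPM at E14.5, 456 and 1114 at E15.5, 716 at E16.5 and 1144 at E17.5. The glia-like sums held 279.9 and 273 CPM at E14.5, 445 and 445 at E15.5, 539.7 at E16.5, 926 at E17.5 and 631 at E18.5. The 9 OM markers summed to 5133 and 7766 CPM in the glia-like sums of E17.5 and E18.5, against 1374 to 1823 in the earlier ones, and their part in these H19 values was not tested. The classes overlapped, since the OM-like sum of E15.5 replicate 1 was below the glia-like sums of E16.5 to E18.5. H19 was 34.7-fold higher in OM-like than in SGN-like cells (log2 difference 5.12 ± 0.60, SE, adjusted p = 7.3e-06) and 15.2-fold higher in glia-like than in SGN-like cells (log2 difference 3.93 ± 0.57, SE, adjusted p = 5.15e-05). OM-like and glia-like cells differed by 1.19 ± 0.60 (log2, SE), which missed the threshold (adjusted p = 0.259; 0.0045 to 0.577 over 26 alternatives). It passed without E16.5 replicate 3 (1.56, adjusted p = 0.0045), where the comparison covers E14.5 and E15.5 only. In SGN-like sums H19 was 31.4 and 23 CPM at E14.5, 5.06 and 25.7 at E15.5, 63.6, 58 and 12.6 at E16.5, 11.2 at E17.5, 171 and 163 at E18.5, and 116 and 101 at P3.

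The ratio of these neighbouring transcripts differed by class. OM-like sums held 0.590 to 2.08 H19 counts per Igf2 count (median 1.21, 6 sums). Glia-like sums held 8.26 to 17.2 (median 8.80, 7 sums), so that no OM-like sum reached any glia-like sum. SGN-like sums spread from 1.55 to 42.1 (median 5.78, 12 sums) and the HC-like sums at E18.5 held 0.746 and 0.791. These are ratios of counts and carry the length of both transcripts, and whether the transcript forms in use differed between classes was not tested. The annotated antisense gene Igf2os overlaps Igf2, and Smart-seq2 reads carry no strand, so reads of the pair cannot be told apart.

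Mest, a paternally expressed hydrolase of the mesoderm and the host of miR-335, was highest in glia. The glia-like sums held 6995 and 6307 CPM at E14.5, 4758 and 5023 at E15.5, 4794 at E16.5, 4194 at E17.5 and 2969 at E18.5. In OM-like sums it was 1339 and 1709.7 CPM at E14.5, 2888 and 2214 at E15.5, 1618 at E16.5 and 1337 at E17.5. In SGN-like sums of E14.5 to E17.5 Mest lay between 94.9 and 376 CPM. Every glia-like sum exceeded every OM-like sum, and every OM-like sum exceeded every SGN-like sum of any stage. Mest was 32.6-fold higher in glia-like than in SGN-like cells (log2 difference 5.03 ± 0.67, SE, adjusted p = 2.49e-05) and 11.2-fold higher in OM-like than in SGN-like cells (log2 difference 3.48 ± 0.63, SE, adjusted p = 0.000376). The latter was lost with limma (adjusted p = 0.0909, the highest of 26 alternatives, the lowest being 2.25e-12). OM-like against glia-like cells gave -1.54 ± 0.68, which missed the threshold (adjusted p = 0.181). It passed without E16.5 replicate 1 (-1.54, adjusted p = 0.000603), which holds no OM-like or glia-like sum and enters only through the shared fit. It also passed without E16.5 replicate 3 (-1.56, adjusted p = 3.43e-06), where the comparison covers E14.5 and E15.5 only. Copg2 overlaps Mest on the opposite strand, so reads from the stretch they share cannot be told apart.

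Plagl1, a zinc-finger factor that binds several imprinted genes and restrains the cell cycle, was also highest in mesenchyme. The OM-like sums held 183 and 187 CPM at E14.5, 410.4 and 338 at E15.5, 235 at E16.5 and 187 at E17.5. In glia-like sums Plagl1 lay between 8.46 and 26.9 CPM, and in SGN-like sums between 3.5 and 22.8. The OM-like sums did not overlap the other classes. Plagl1 was 24-fold higher in OM-like than in SGN-like cells (log2 difference 4.59 ± 0.56, SE, adjusted p = 1.03e-05) and 15.1-fold higher than in glia-like cells (log2 difference 3.92 ± 0.67, SE, adjusted p = 0.00104). The latter was lost with limma (adjusted p = 0.0572, the highest of 26 alternatives). Plagl1 was the member that did not pass in glia-like against SGN-like cells (log2 difference 0.67 ± 0.51, SE, adjusted p = 0.359).

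Grb10, an adaptor that dampens signalling from insulin and insulin-like growth factor receptors, was high in both OM-like and glia-like cells and low in neurons. Levels in OM-like sums were 701 and 804 CPM at E14.5, 440.0 and 628 at E15.5, 471 at E16.5 and 384 at E17.5. Levels in glia-like sums were 1083 and 1015 CPM at E14.5, 724 and 736 at E15.5, 489.9 at E16.5, 438 at E17.5 and 253 at E18.5. In SGN-like sums of E14.5 to E17.5 it was 2.37 to 52.1 CPM. Grb10 was 30.1-fold higher in OM-like cells (log2 difference 4.91 ± 0.52, SE, adjusted p = 2.7e-06) and 37.8-fold higher in glia-like cells (log2 difference 5.24 ± 0.53, SE, adjusted p = 1.58e-06) than in SGN-like cells. OM-like and glia-like cells differed by -0.33 ± 0.51 (adjusted p = 0.928). In glia-like cells the values ran lower from E14.5 to E18.5, but the test of E16.5 against E14.5 gave -1.10 ± 0.99 (adjusted p = 1).

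Cdkn1c encodes p57, an inhibitor of cyclin-dependent kinases that takes cells out of the cycle. It had an order of its own, with OM-like above SGN-like and SGN-like above glia-like cells. Levels in OM-like sums were 635 and 766 CPM at E14.5, 493 and 584 at E15.5, 390.0 at E16.5 and 353 at E17.5. In SGN-like sums Cdkn1c was 271 and 281 CPM at E14.5, 282 and 276 at E15.5, 238, 267 and 284 at E16.5, 335 at E17.5, 176 and 201 at E18.5, and 109 and 106 at P3. The glia-like sums held 32.6 to 83.3 CPM. Every SGN-like sum was above every glia-like sum and below every OM-like sum. The test gave 0.95 ± 0.27 for OM-like against SGN-like cells (adjusted p = 0.0103), -2.51 ± 0.31 for glia-like against SGN-like cells (adjusted p = 1.3e-05) and 3.47 ± 0.35 for OM-like against glia-like cells (adjusted p = 7.17e-06), all log2 with SE. The 7 cycling markers summed to 626 to 1282 CPM in OM-like, 993 to 2133 in glia-like and 5.95 to 248 in SGN-like sums, and their part in the Cdkn1c order was not tested.

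Dlk1, a membrane protein of the Delta type that holds mesenchymal progenitors undifferentiated, was counted mostly in OM-like sums, with 5212 counts in 6 sums. Its level was 59.7 and 27.2 CPM at E14.5, 15.4 and 74 at E15.5, 8.2 at E16.5 and 22.1 at E17.5 in OM-like sums. The 12 SGN-like sums held 99 Dlk1 counts in all, 3 of them none, and the highest glia-like level was 3.87 CPM. Dlk1 was 118-fold higher in OM-like than in SGN-like cells (log2 difference 6.89 ± 1.04, SE, adjusted p = 9.97e-05) and 19.2-fold higher than in glia-like cells (log2 difference 4.26 ± 1.13, SE, adjusted p = 0.0204). With the plate as a block the latter gave 4.58 and lost its call (adjusted p = 0.0775; 0.000117 to 0.0787 over 26 alternatives), as it did without E14.5 replicate 1 (3.73, adjusted p = 0.0787). Glia-like against SGN-like cells gave 2.62 ± 0.91 (adjusted p = 0.0355) on 14 and 112 glia-like counts at E14.5, 0 and 77 at E15.5 and 75 at E16.5. That call held in 15 of 26 alternatives, was lost with the block (2.50, adjusted p = 0.192; 0.00624 to 1 over the alternatives) and turned to -0.19 without E15.5 replicate 2. It was also lost without either plate of E14.5 (3.08 and 1.94, adjusted p = 0.0668 and 0.236) and without E16.5 replicate 2 or 3 (adjusted p = 0.0553 and 0.0582). Without replicate 3 the comparison covers E14.5 and E15.5 only. Glia-like Dlk1 was 0.512 and 3.87 CPM at E14.5, 0 and 1.48 at E15.5 and 1.39 at E16.5. In cells below each sum's median for counts of other classes' markers it was 0.140 and 3.76 at E14.5. At E15.5 it was 0 and 0.0759 in such cells and at E16.5 0.536. The part of OM RNA in these counts was not tested.

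Meg3, the maternally expressed RNA of the same cluster and a suppressor of proliferation in cultured cells, was highest in neurons. In SGN-like sums Meg3 was 761 and 1139.7 CPM at E14.5, 1623 and 1263 at E15.5, 2740.4, 2554 and 1889.8 at E16.5, 2775 at E17.5, 3679 and 3680.3 at E18.5, and 3340.3 and 3080.2 at P3. It was 435 and 556 CPM at E14.5, 536 and 584 at E15.5, 279 at E16.5 and 231 at E17.5 in OM-like sums. The glia-like sums held 72.8 and 114 CPM at E14.5, 99.4 and 112 at E15.5, 99.1 at E16.5, 121 at E17.5 and 475 at E18.5, the last being the 5-cell sum in which the 10 neuronal markers were 1689 CPM against 506 to 708 in the other glia-like sums. Each SGN-like sum exceeded each OM-like and glia-like sum. Meg3 was 15-fold lower in glia-like than in SGN-like cells (log2 difference -3.91 ± 0.66, SE, adjusted p = 0.000201). OM-like cells were 3.49-fold lower than SGN-like cells (log2 difference -1.80 ± 0.56, SE, adjusted p = 0.0177) and 4.3-fold higher than glia-like cells (log2 difference 2.10 ± 0.59, SE, adjusted p = 0.027). With the plate as a block these gave -1.51 (adjusted p = 0.0851; 3.12e-07 to 0.321 over 26 alternatives) and 2.11 (adjusted p = 0.0795; 3.35e-07 to 0.439). Both calls were also lost without any 1 of the 4 plates of E14.5 and E15.5, with adjusted p of 0.0692 to 0.0964 against SGN-like and 0.0964 to 0.113 against glia-like cells.

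Counts of the 2 transcripts of this cluster stood in different ratios by class. OM-like sums held 7.28 to 34.9 Meg3 counts per Dlk1 count (median 15.4, 6 sums) and the 5 glia-like sums with Dlk1 counts held 29.4 to 479. Only 2 SGN-like sums had enough Dlk1 counts for a ratio, and they held 7860 and 9102.

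Peg3, a paternally expressed zinc-finger protein of growth and metabolism, was highest in mesenchyme, then glia, then neurons from E14.5 to E16.5. The OM-like sums held 766 and 806 CPM at E14.5, 887 and 816 at E15.5, 798 at E16.5 and 520.0 at E17.5. The glia-like sums held 158 to 355 CPM and the SGN-like sums of E14.5 to E16.5 held 109 to 208. No OM-like sum overlapped another class. At E18.5 the 5-cell glia-like sum was just below the SGN-like sum of its plate (162), and the SGN-like sums of P3 (288 and 303) lay within the glia-like range. Peg3 was 5.31-fold higher in OM-like than in SGN-like cells (log2 difference 2.41 ± 0.11, SE, adjusted p = 7.1e-10), 2.55-fold higher than in glia-like cells (adjusted p = 2.66e-06) and 2.08-fold higher in glia-like than in SGN-like cells (adjusted p = 1.43e-06). With the 5% of cells of highest counts left out the latter 2 were lost (adjusted p = 0.111 and 0.0734, the highest of 26 alternatives each).

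Ndn encodes necdin, a protein of postmitotic neurons that binds E2F factors, and was the other neuronal member. In SGN-like sums Ndn was 768 and 787 CPM at E14.5, 688 and 624 at E15.5, 966, 908 and 844 at E16.5, 992 at E17.5, 957 and 964 at E18.5, and 1227 and 1477 at P3. The OM-like sums held 159 to 308 CPM and the glia-like sums 191 to 273, apart from 546 in the 5-cell sum of E18.5. Every SGN-like sum lay above all of them. Ndn was 3.38-fold lower in OM-like cells (log2 difference -1.76 ± 0.12, SE, adjusted p = 3.5e-08) and 3.35-fold lower in glia-like cells (log2 difference -1.75 ± 0.12, SE, adjusted p = 3.05e-08) than in SGN-like cells. OM-like and glia-like cells differed by -0.01 ± 0.12 (adjusted p = 1).

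HC-like cells had the lowest levels of several members. The study told cochlear from vestibular hair cells by marker genes and discarded the vestibular ones, a step not repeated here. HC-like cells may thus hold both, and their values may not be those of cochlear hair cells alone. At E18.5, where 35 and 31 HC-like cells were summed, 4 of the 10 genes were lower than in SGN-like cells of the same plates (H19, Peg3, Meg3 and Ndn) and none was higher. Of all genes 14.7% passed and 8.26% were lower, and the median log2 difference was -2.13 over the 10 genes and -0.12 over all genes. Meg3 was 19 and 0 CPM at E16.5 and 7.59 and 82.8 at E18.5 in HC-like sums, and at E18.5 it was 81.5-fold lower than in SGN-like cells (log2 difference -6.35 ± 1.06, SE, adjusted p = 0.000814). The 2 HC-like sums of E18.5 differed by over 10 times in Meg3, both far below the SGN-like sums of 3679 and 3680.3.

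Ndn, at 139.03 and 189 CPM at E16.5 and 141 and 194 at E18.5, was 5.74-fold lower (log2 difference -2.52 ± 0.19, SE, adjusted p = 1.01e-06). Peg3, at 55.9 and 49.2 CPM at E16.5 and 36.7 and 30.9 at E18.5, was 4.93-fold lower (log2 difference -2.30 ± 0.18, SE, adjusted p = 1.58e-06). The Peg3 call was lost with the 5% of cells of highest counts left out (-2.28, adjusted p = 0.0689, the highest of 25 alternatives). In both genes all 4 HC-like sums were below all 12 SGN-like sums. H19, at 32.8 and 0.657 CPM at E16.5 and 5.09 and 3.26 at E18.5, was 40.1-fold lower (log2 difference -5.32 ± 1.08, SE, adjusted p = 0.0034), and lost its call without E18.5 replicate 1 (adjusted p = 0.0989) or 2 (adjusted p = 0.128), each of which leaves 1 sum a class. The SGN-like sums in this test held 2579 and 2529 CPM of glial markers against 434 to 492 in the HC-like sums, and their part in the H19 difference was not tested.

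Cdkn1c and Grb10 did not pass in HC-like against SGN-like cells. Cdkn1c was 275 and 68.9 CPM at E16.5 and 169 and 260.0 at E18.5 and Grb10 was 261 and 127 CPM at E16.5 and 87.7 and 63.8 at E18.5. The differences from SGN-like cells at E18.5 were 0.19 ± 0.45 for Cdkn1c (adjusted p = 0.858) and 0.17 ± 0.77 for Grb10 (adjusted p = 0.928), with SEs too wide to show that the classes were alike. Over the cells of each sum below its median for counts of other classes' markers, Grb10 was 77.2 and 57.9 CPM in HC-like and 20.6 and 21 in SGN-like cells and passed (1.70, adjusted p = 0.0285; 0.0285 to 1 over 25 alternatives). Mest gave -2.98 ± 1.07 (adjusted p = 0.0783) and Igf2 gave -1.96 ± 0.71 (adjusted p = 0.0807). With the plate as a block Igf2 passed (-2.00, adjusted p = 0.0337; 0.00243 to 0.966 over 25 alternatives). Both genes passed without E16.5 replicate 1 or 3, the plates of the 4-cell HC-like sums, Mest with adjusted p of 9.86e-05 and 4.5e-07 and Igf2 with 0.0233 and 0.00346. Dlk1 had 3 counts in all 4 HC-like sums, and Plagl1 was 11.8 and 0 CPM at E16.5 and 9.22 and 7.87 at E18.5.

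Among HC-like cells at E18.5 Mest split by cluster. The cluster led by Fcrlb and Otof held 30.8 and 34.8 CPM on the 2 plates (22 and 17 cells), and the cluster led by Smpx, Kcna10 and Ocm held 206 and 278 (13 and 14 cells). Igf2 went the other way, with 8.1 and 6.24 in the first and 3.13 and 1.02 in the second. The supporting and epithelial markers summed to 2130 and 2497 CPM in the HC-like sums of E18.5. Peg3 was 35.4 and 32.2 in the first and 32.3 and 25.8 in the second, Ndn 130.5 and 157 and 134 and 217, and Meg3 5.91 and 3.12 and 9.38 and 173, so that these genes were far below SGN-like sums in both. The cluster values are descriptions without a test, and which cluster is cochlear was not tested.

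With stage, few changes in neurons passed the test in the fit over all 29 sums, which share 1 estimate of spread. A fit of only the sums compared called 2 members for E16.5 against E14.5, 4 for E18.5 against E14.5 and 9 for P3 against E18.5. Over all genes the alternatives called up to 1601, 3826 and 8367 of 18686 in these comparisons. The number over all genes in the fit of only the sums compared is not given here. Its member counts thus cannot be set against a share of all genes. In SGN-like cells Peg3 was 1.74-fold higher at E16.5 than at E14.5 (log2 difference 0.80 ± 0.16, SE, adjusted p = 0.0378). It was 1.77-fold higher at P3 than at E18.5 (log2 difference 0.83 ± 0.18, SE, adjusted p = 0.0218). It was the 1 member of 10 called in each, against 0.648% of all genes at E16.5 (0.364% higher) and 2.4% at P3 (1.41% higher). Stage cannot be told apart from dissection between E14.5 and E16.5, or from plate series between E18.5 and P3. E16.5 replicates 1 and 2 also came from another plate series than E14.5, and E14.5 replicate 2 had another Cre driver. Peg3 was 122 and 109 CPM at E14.5, 173 and 132.8 at E15.5, 208, 189.9 and 206 at E16.5, 236 at E17.5, 171 and 162 at E18.5, and 288 and 303 at P3. All E16.5 sums were thus above both E14.5 sums and both P3 sums above all others. Without TMM scaling P3 replicate 1 (214 CPM) was below the E17.5 sum (229) and P3 replicate 2 (231) just above it. The first call held in 11 of 25 alternatives (adjusted p 4.64e-05 to 0.946) and the second in 15 of 24 (0.000255 to 0.762). The first was lost without either plate of E14.5, E15.5, E18.5 or P3 or without E16.5 replicate 2 (adjusted p = 0.05004 to 0.424), and the second without either plate of E14.5, E18.5 or P3 (0.0771 to 0.26).

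From E14.5 to E18.5 edgeR called 0 members in the fit over all sums, against 3.68% of all genes. At an unadjusted p under 0.05 there were 4 members, H19, Mest, Peg3 and Meg3, against 15.6% of all genes. DESeq2 called 3 of them (H19, Mest and Peg3) and limma 0. Over all genes the alternatives called 97 to 3826, and the share called by DESeq2 alone is not given here. Without E16.5 replicate 1 edgeR called all of these but Meg3 (adjusted p = 0.02 for H19, 0.00049 for Mest and 0.0274 for Peg3), and without E16.5 replicate 3 it called H19 (0.00484) and Mest (3.13e-06). The E16.5 sums enter this comparison only through the shared fit. Mest differed by 2.94 ± 1.07 (adjusted p = 0.165), H19 by 2.62 ± 0.94 (0.157), Meg3 by 1.95 ± 0.87 (0.284) and Peg3 by 0.53 ± 0.18 (0.125). The median over the 10 genes was 0.69 and over all genes 0.27.

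Glial markers also differed between the SGN-like sums that Mest and H19 were compared in. In SGN-like sums Mest was 127 and 128 CPM at E14.5, 105 and 165.6 at E15.5, 376, 315 and 94.9 at E16.5, 135 at E17.5, 988 and 968 at E18.5, and 722 and 695 at P3. The SGN-like sums of E16.5 replicates 1 and 2 were above replicate 3 of the same stage by over 3 times, as they were in glial markers. As a percent of the glia-like sum of E17.5, the glial markers of the SGN-like sums at E18.5 were 27.4 and 26.9, Mest 23.6 and 23.1, H19 18.504 and 17.6, Igf2 21.1 and 20.7 and Grb10 16.1 and 14.6. At P3 the markers were 40.5 and 45.2, Mest 17.2 and 16.6, H19 12.6 and 10.9, Grb10 4.00 and 2.41 and Igf2 3.67 and 2.35. From E18.5 to P3 the markers were thus higher and all 4 genes lower. At E14.5 the markers were 0.481 and 0.181, Mest 3.02 and 3.05, Igf2 8.18 and 14.6 and H19 3.38 and 2.48. The study's list of genes removed as glial contamination holds all 4 genes. The part of glial RNA in these levels was not tested.

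**Figure D3:**
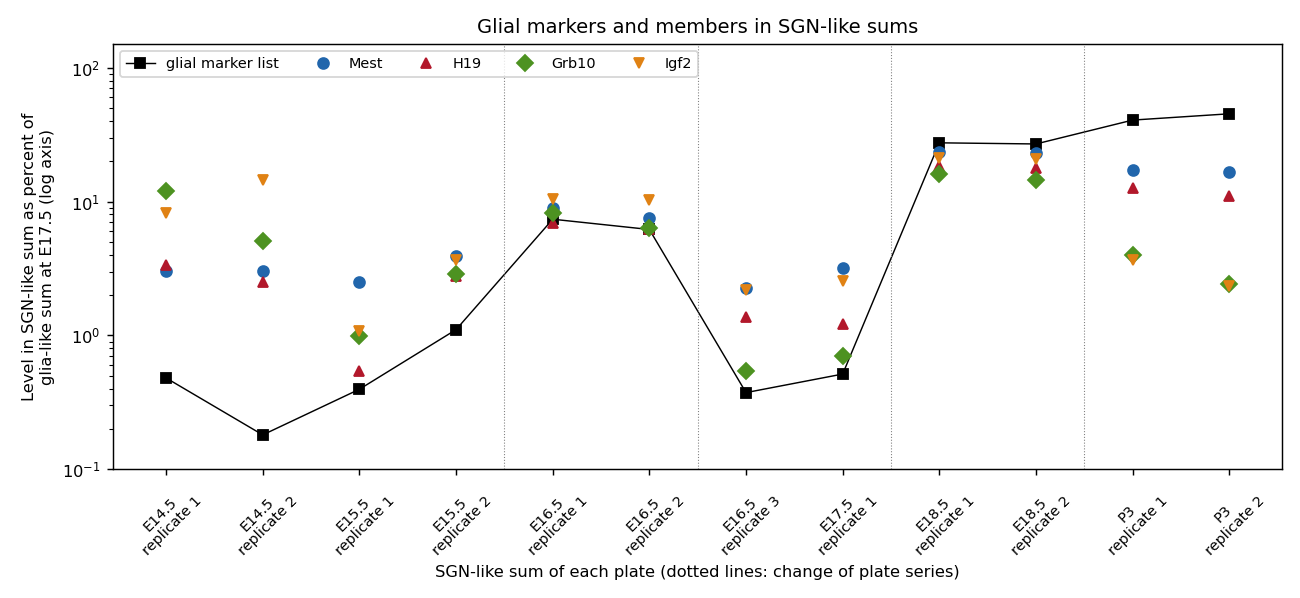
Summed level of 8 glial markers (black squares, joined) and of Mest, H19, Grb10 and Igf2 in the SGN-like sum of each plate, as a percent of the glia-like sum at E17.5 on a log axis; dotted lines part the plate series. The markers were 0.181 to 1.10 percent on the plates of E14.5, E15.5, E16.5 replicate 3 and E17.5, 6.18 and 7.37 in E16.5 replicates 2 and 1, and 26.9 to 45.2 at E18.5 and P3.

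In the SGN-like cells of each plate that lay below its median for counts of other classes' markers, Mest at E18.5 was 363 and 417 CPM in place of 988 and 968, and H19 was 34.6 and 30.8 in place of 171 and 163. At P3 Mest was 671 and 675 in place of 722 and 695, and H19 was 51.8 and 40.9 in place of 116 and 101. Meg3 at E18.5 was 4195 and 4042 in these below-median cells, above the 3679 and 3680.3 of all cells. So H19 at both stages and Mest at E18.5 were lower in the below-median cells, Mest at P3 was nearly as high, and Meg3 at E18.5 was higher. In P3 minus E18.5 Mest gave -0.46 over all cells and 0.79 over the below-median cells (adjusted p = 0.0265; 0.00246 to 1 over 24 alternatives).

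Between E18.5 and P3 the other members did not pass. Igf2 was -2.79 ± 0.72 (adjusted p = 0.0546) and was called in 9 of 24 alternatives, among them those without E16.5 replicate 1 (adjusted p = 0.00478) or 3 (0.000296). Cdkn1c was -0.81 ± 0.45 (adjusted p = 0.474), with both P3 sums below every earlier SGN-like sum. Ndn was 0.49 ± 0.18 (adjusted p = 0.201), with both P3 sums above every earlier one, and passed without E16.5 replicate 1 (0.0296) or 3 (0.0278). Without TMM scaling Ndn in P3 replicate 1 (910 CPM) was below the E17.5 sum (961). Grb10 was -2.26 ± 0.81 (adjusted p = 0.196) and passed without E16.5 replicate 3 (0.00192). At P3 the neuronal cluster led by Th and Plk5, genes of type II neurons, held less Meg3, Mest and Cdkn1c than the other clusters did on the plate with the most cells, as a description (Meg3 1794 CPM, Mest 323 and Cdkn1c 28.2).

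In OM-like and glia-like cells E16.5 against E14.5 gave no call for any member with edgeR in the fit over all 29 sums. In glia-like cells 0 of 10 passed, against 0.112% of all genes, and 0 at an unadjusted p under 0.05, against 5.03%. In OM-like cells 0 passed, against 0.134%, and 1 (Ndn, -0.66 ± 0.22, adjusted p = 0.633) at an unadjusted p under 0.05, against 5.2%. DESeq2 and limma called 0 members in both. Each rests on 1 plate at E16.5. In an edgeR fit of only the sums compared, Grb10, H19 and Mest passed in glia-like cells and Igf2 in OM-like cells. That fit also has 1 plate at E16.5, and the share of all genes it called is not given here. Igf2 in OM-like sums was 1081 and 1229 CPM at E14.5 and 535 at E16.5, a difference of -1.11 ± 0.86 (adjusted p = 1), and the mix of OM-like clusters also differed between these stages.

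Whether the change from E14.5 to E16.5 differed between classes was tested with an interaction term in the fit over all sums. No member was called by edgeR, against 0.144% of all genes for OM-like minus SGN-like cells and 0.091% for glia-like minus SGN-like cells, and DESeq2 and limma also called none. At an unadjusted p under 0.05 there were 2 in the first (Ndn, -0.88 ± 0.28, adjusted p = 0.325; Peg3, -0.78 ± 0.27, adjusted p = 0.391), against 8.23% of all genes. In the second there was 1 (Peg3, -0.64 ± 0.27, adjusted p = 0.621), against 7.02%.

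Mesenchyme was not uniform in these genes. At E14.5 the OM-like cells of both plates formed 6 clusters, found without the 10 genes, and the plates gave close values in most. Cells led by Gdf5, a signal of forming joints and cartilage (21 and 30 cells), held 4097 and 4490.5 CPM of H19. Cells led by Matn1, a cartilage matrix gene (19 and 15 cells), held 2856 and 3969. Those led by Otor, a gene of the otic capsule and fibrocytes (30 and 41 cells), held 209 and 171, and those led by Apod (32 and 27 cells) held 234 and 320.2.

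Igf2 had the same low clusters and a different highest one. It was 297 and 280.2 CPM in the Otor cluster and 165 and 274 in the Apod cluster, against 2038 and 1943 in the Gdf5 cluster and 2889 and 2728 in the cluster led by Aldh1a2, which makes retinoic acid (15 and 22 cells). The Aldh1a2 cluster also held 505 and 162 CPM of Dlk1, against at most 38.0 in any other cluster and plate. Grb10 there was 1835 and 2289.7, against at most 934 elsewhere. Meg3 was 1117 and 1362 in that cluster and 1154 and 1245 in the Gdf5 cluster, but 34.7 and 57.4 in the Otor cluster.

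Peg3 was highest in the Matn1 cluster, at 1726 and 1452 CPM, and lowest in the Otor cluster, at 272 and 142. Plagl1 was 339 and 515 and 549.8 and 278 in the Matn1 and Aldh1a2 clusters and 37.7 and 17 in the Otor cluster. Cdkn1c was 1637 and 1292 in the Aldh1a2 cluster and 188 and 314 in the Otor cluster. Grb10 in the Otor cluster, at 741 and 902, lay within the range of the other clusters. The OM-like cells of E16.5 formed 1 cluster led by Otor, Tbx18 and Apod, so the stage and the mix of OM-like cells cannot be told apart.

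**Figure D4:**
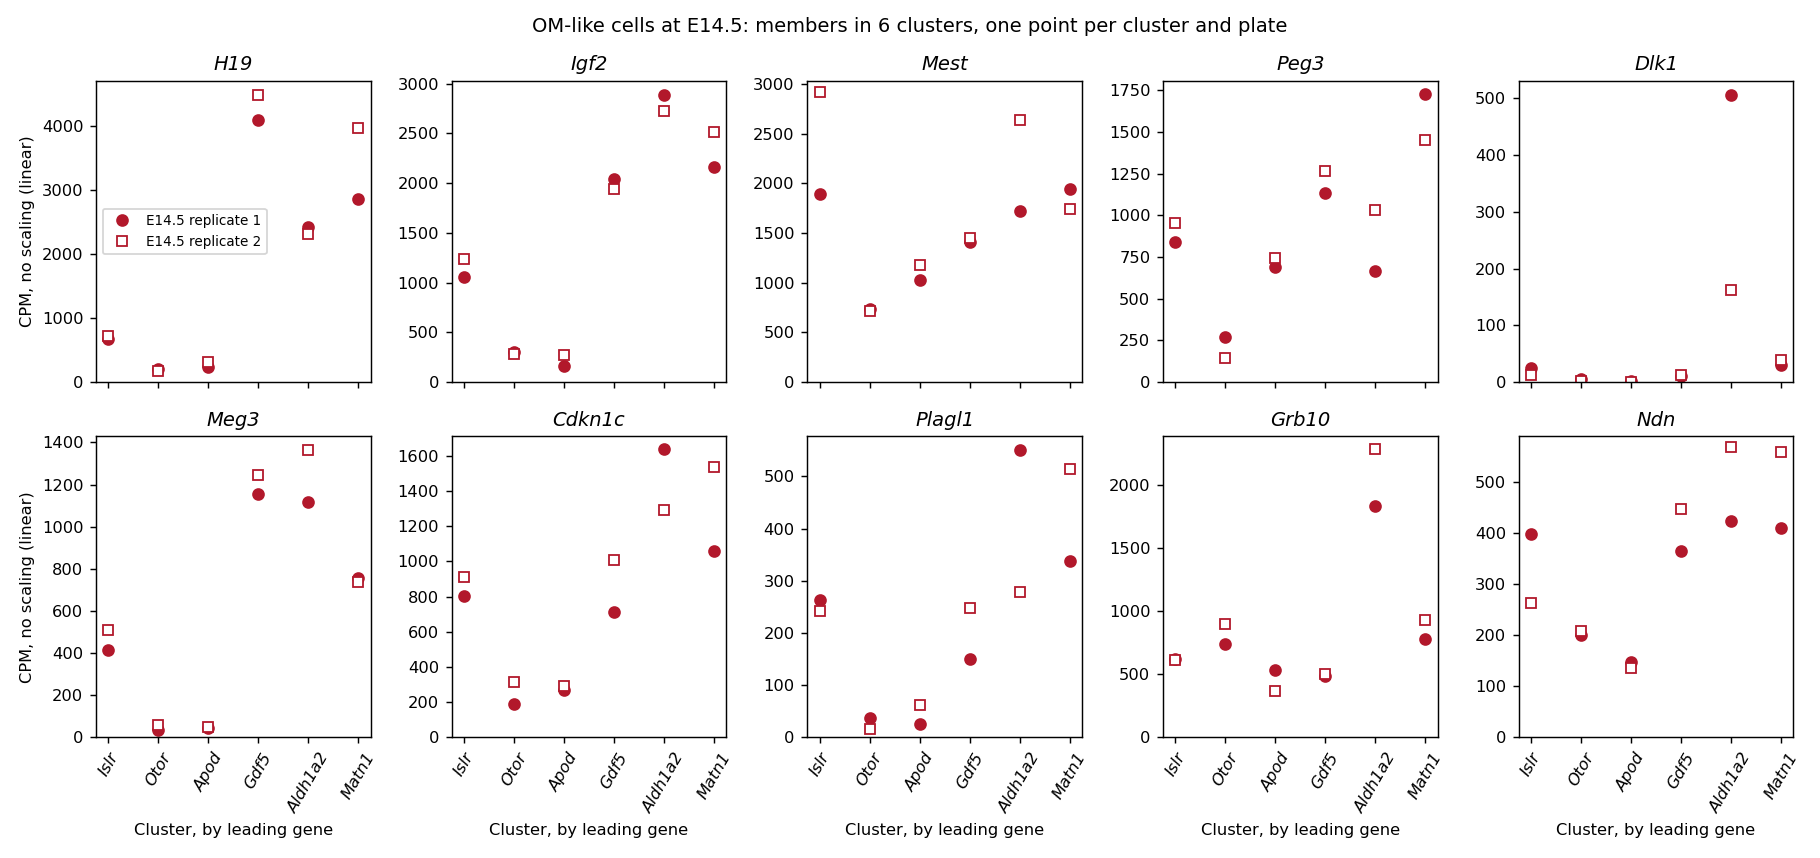
CPM without TMM scaling, on linear axes, of each gene in the 6 clusters of OM-like cells at E14.5, named by their leading gene; filled circles are replicate 1 and open squares replicate 2. H19, Igf2, Meg3, Plagl1 and Cdkn1c were low in the Otor and Apod clusters on both plates, and Dlk1 was high in the Aldh1a2 cluster, at 505 and 162.

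Single OM-like cells held these genes to different breadths. After thinning each cell to 50000 counts, Igf2 had a count in 89.3% of OM-like cells at E14.5 (91.3% before thinning), H19 in 84.1% (87.9%), Plagl1 in 52.5% (54.6%) and Dlk1 in 23.2% (31.5%). The top 10% of the cells by Dlk1 held 87.2% of its counts, against 36.3% for Igf2. Of 346 cells, 1 was below the thinning total. As a background, Sox10, a glial factor, had a count in 2.9% of these OM-like cells after thinning (5.49% before).

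In glia-like cells of E14.5, at a like median depth (275746 counts per cell against 277954), H19 had a count in 71.6% (74.9% before thinning), Igf2 in 27.4% (33.5%), Plagl1 in 8.96% (11.8%) and Dlk1 in 3.48% (5.42%). Pou3f4, an OM factor, had a count in 1.49% of them (2.96%). Of 203 cells, 2 were below the thinning total. In SGN-like cells of E14.5, at a median of 265921 counts and with no cell left out, Dlk1 was at 0% (2.33%). H19 was thus broad in glia and Igf2 was not.

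Within single OM-like cells of E14.5, H19 and Igf2 went together, with a Spearman rho of 0.747 over the 159 cells of replicate 1 and 0.772 over the 187 of replicate 2. For Igf2 and Plagl1 rho was 0.580 and 0.380, for Dlk1 and Meg3 0.464 and 0.405, and for H19 and Mest 0.184 and 0.166. Among glia-like cells of E15.5 H19 and Igf2 gave 0.261 and 0.233 over 228 and 213 cells, and among SGN-like cells of P3 0.206 and 0.192 over 376 and 125 cells. These describe cells that share a plate and the clusters above, and are no test.

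**Figure D5:**
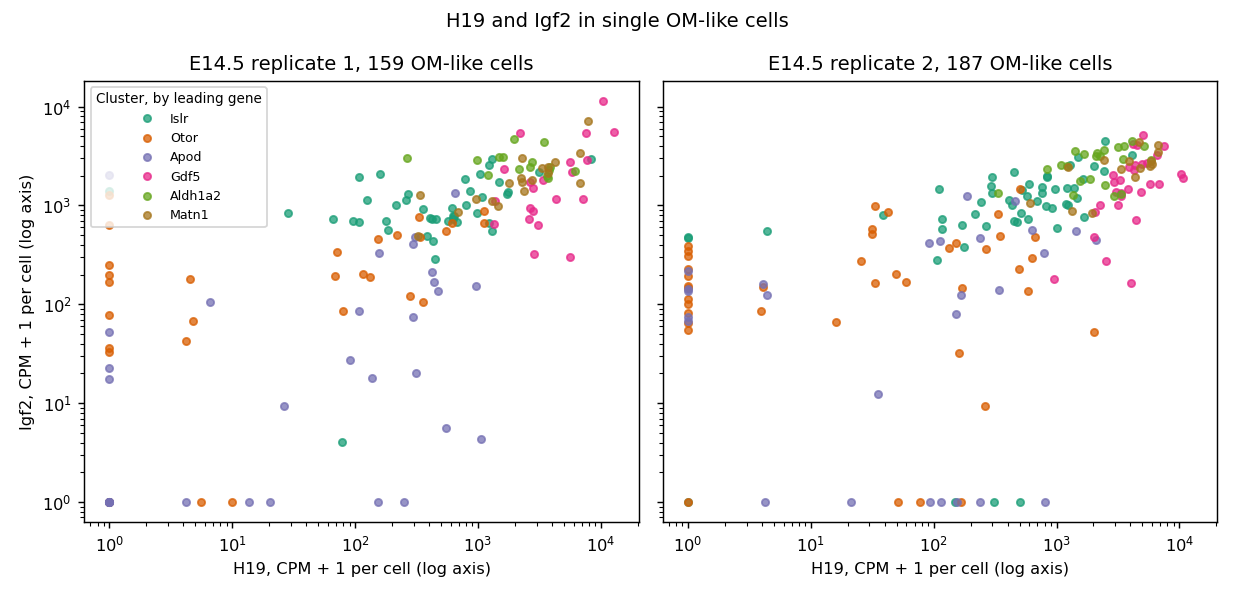
Igf2 against H19 in single OM-like cells of the 2 plates of E14.5, as CPM plus 1 per cell on log axes, coloured by the leading gene of their cluster; cells at 1 had no count. Cells of the Gdf5, Matn1 and Aldh1a2 clusters lie at the upper right, and those of the Otor and Apod clusters spread towards the lower left (rho 0.747 and 0.772).

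The genes whose levels most resembled each member over the 29 sums, by Pearson's r of log2(CPM + 1) among 10998 genes, were as follows. Igf2 went with Bgn (r = 0.966) and Pear1 (0.965), H19 with Ccnd2 (0.954) and Crtap (0.953), and Mest with Egflam (0.973) and Irs1 (0.971). Meg3 went with Ank2 (0.982) and Fhl1 (0.965), and Ndn with Caly (0.977) and Ttc9b (0.963). Dlk1 went with Col13a1 (0.940) and Meox2 (0.939), Grb10 with H2afv (0.942) and Creb3l2 (0.928), and Peg3 with Arhgap20 (0.930) and Nap1l1 (0.907). Cdkn1c went with Crispld1 (0.929) and Sema3f (0.918), and Plagl1 with Bicc1 (0.914) and Sept11 (0.912). Among the members, the closest pairs were Igf2 and Plagl1 (0.88), H19 and Mest (0.87), and Igf2 with Dlk1 and with H19 (both 0.86), and Grb10 and Ndn were opposed (-0.76). The sums share plates and fall into 4 classes, so these values describe the classes and carry no p.

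Imprinted genes outside the group of 10 went both ways. Of 53 others listed, 51 were tested. In OM-like against SGN-like cells 14 were higher, 16 lower and 21 did not pass, with a median log2 difference of 0.07 against -0.20 over all genes. In glia-like against SGN-like cells 10 were higher, 21 lower and 20 did not pass (median -0.58 against -0.05). In OM-like against glia-like cells 6 were higher, 2 lower and 43 did not pass, and in HC-like against SGN-like cells 2 were higher, 13 lower and 36 did not pass.

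The largest rises in OM-like over SGN-like cells were of Htr2a (log2 7.16, from levels of 1.31 and 0.0266 CPM), Dcn (6.99), a small proteoglycan, Slc38a4 (6.09), an amino acid transporter, and Zim1 (5.76). The largest falls were of Th (-10.75), tyrosine hydroxylase, Slc22a3 with 1 count in OM-like sums, Snrpn with 6, and Dio3 (-6.60), an enzyme that inactivates thyroid hormone. In glia-like over SGN-like cells Sfmbt2 (5.08), Dcn (4.55), Ddc (4.53) and Peg12 (3.77) rose most. Th was lower (-8.91), and Dio3, Kcnk9 and Snrpn had no count in glia-like sums. With 3 counts over the group taken as the floor, they were at least 1441-fold, 104-fold and 80.2-fold lower. Their mean levels in SGN-like sums were 19.4, 1.40 and 1.08 CPM, so Kcnk9 and Snrpn were low in both classes. Dio3 stands in the same cluster as Dlk1 and Meg3 and was, as Meg3, lower in OM-like and glia-like than in SGN-like cells. The study's list of genes that followed Sox10 at E18.5 holds 4 of the 10 members (H19, Igf2, Mest and Grb10), 3 of the 53 other imprinted genes and 1364 of all 24489 genes. The study found glial contamination, greatest at E18.5, and removed the listed genes from its data for that reason. That list was made on these samples, so it is not independent of the levels given here.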

How the data were processed

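Reads were counted by the authors. The deposited table holds whole-number counts per gene and well, from uniquely mapped reads aligned with STAR to mm10, per the labels and methods, and 92 spike-in columns. The strand setting of the counting is not given in the sources used here. One further plate of 384 wells belonged to no sample and was not used. Cells with over 1000 genes and under 5% spike-in counts were kept, without a doublet caller. Cells were clustered by stage with scanpy 1.11.5 (2000 variable genes without the 10 members, other imprinted genes and the study's glial list, 30 components, 30 neighbours, Leiden resolution 1) and clusters named from markers. How clusters were named was changed once their tables were known, and a cell scoring higher for another class was left unnamed.

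Counts were summed per class and plate (at least 5 cells, 3 for HC-like) and 18686 genes tested across 29 sums with edgeR 4.0.16 (glmQLFit, glmQLFTest, TMM, filterByExpr, 12 residual degrees of freedom). All sums share 1 estimate of spread, so leaving out a plate can change the call of a comparison that it takes no part in. Because classes of 1 plate share animals, the plate pairs them and a fit with the plate as a block was run as an alternative. The correlation of paired deviations over 11037 genes was -0.00232 to 0.0297 for OM-like, glia-like and SGN-like sums and 0.147 and 0.183 for HC-like and SGN-like sums. limma 3.58.1, DESeq2 1.42.0, other filters and scalings, and leaving out each plate were the other alternatives. Statistics were tested on simulated data first. The members and lists were chosen with earlier results of these data known. Named genes were the 10 members, the 4 other imprinted genes with the largest called difference in each direction and, for each member, the 2 genes most like it. Reads without molecular identifiers are not independent molecules, so floors cover counting error only.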

Additional observations from a re-analysis of the deposited data

Results flagged for a closer look

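The data hold 3 columns of the count table that overlap members, but take part in no comparison, and whose counts were above the limit of 3 that a count of 0 allows. Mir335, within Mest, had 83 counts over 17 of the 29 sums, against 2188945 counts of Mest. Mir483, within Igf2, had 14 counts over 6 sums, and Igf2os, antisense to Igf2, had 274 over 15 sums, against 171573 counts of Igf2. Mir675 within H19 and Mir770 within Meg3 had 0 counts in all sums. PolyA libraries do not measure mature microRNAs. No class and stage had 4 or more plates, so single plates could not be tested against the others of their group (0 groups).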

How the results depend on the processing

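No class comparison moved its number of members called by over 1.5 times under any alternative that kept all plates. The number did move in the stage comparisons of SGN-like cells. For E16.5 against E14.5 (1 called) it was 0 with RLE size factors, with no filter on low counts, with every cell scaled to the same total and with the 5% of cells of highest counts left out, 2 in a fit of only the sums compared and 3 in the cells of each plate below its median for foreign marker counts. For E18.5 against E14.5 (0 called) it was 3 with DESeq2 and with the study's stricter cell filter, 4 in the fit of only the sums compared, and 2 with at least 10 cells in a sum and in the below-median cells. For P3 against E18.5 (1 called) it was 4 with DESeq2 and with the stricter cell filter, 9 with only the sums compared, 3 with at least 10 cells, 2 with no filter, with the below-median cells and with glial code genes kept for clustering, and 0 with equal cell totals and with the top 5% left out. With only the sums compared, 3 members were called for glia-like stage, 1 for OM-like stage and 2 for the OM-like interaction, each 0 as reported. The below-median cells gave 1 in each interaction and the stricter filter 1 in the OM-like one. Leaving out 1 plate gave 9 to 10 members for OM-like against SGN-like cells, 8 to 9 for glia-like against SGN-like, 4 to 8 for OM-like against glia-like, 3 to 6 for HC-like, and 0 to 2, 0 to 3 and 0 to 4 for the SGN-like stages, and 0 for the others; the cause was not tested.

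With the plate as a replicate block, 9, 8, 4 and 5 members were called in the class comparisons and 0 in both interactions, and the block changed no call beyond those given above; the stage comparisons have no blocked value, since no plate holds 2 stages. Among differences that passed in at least 1 fit, signs turned for Igf2 in HC-like against SGN-like cells (0.092, below-median cells), Mest in SGN-like E16.5 against E14.5 (-0.43, 1 plate series), H19 and Mest in P3 against E18.5 (0.50 and 0.79, below-median cells), Mest in the glia-like interaction (0.61, block) and Dlk1 in glia-like against SGN-like cells (-0.19 without E15.5 replicate 2, and up to 3.27 without another plate). Of the other values of such differences 1363 kept direction and side of the threshold, 84 passed it and 54 lost it. Differences that passed in no fit turned sign too, among them Ndn in OM-like against glia-like cells (in 7 of 26 alternatives), Cdkn1c in HC-like cells (to -0.03), and H19 and Grb10 in SGN-like E16.5 and E18.5 against E14.5 (to -1.11 and -0.30). Genes called in all ranged from 4919 to 9958 (6938 as reported), 4909 to 9815 (6799), 1193 to 5117 (2439) and 527 to 9498 (2748) in the class comparisons, 8 to 1601 (121), 97 to 3826 (687) and 19 to 8367 (448) in the SGN-like stages, 6 to 376 (21) and 0 to 448 (25) in the glia-like and OM-like stages, and 0 to 837 (27) and 0 to 598 (17) in the interactions. The below-median cells moved 20 of 126 levels by over 1.5 times. OM-like and glia-like stage values cannot be had without E16.5 replicate 3, nor E18.5 or P3 values from 1 plate series. Without that replicate, the comparisons of OM-like or glia-like cells cover E14.5 and E15.5 only. Few plates limit every test.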

Other observations

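Cells left unnamed also held members. At E14.5 5 cells, on 2 plates, formed a cluster led by Acta2, Myod1, Myog and Tnnt1, genes of skeletal muscle. They held 5972 CPM of Cdkn1c, 2462 of H19, 1903 of Igf2, 2977 of Mest and 809 of Plagl1. Another 12 cells, led by Oc90, an otoconial protein gene of otic epithelium, held 756 CPM of Peg3, 669 of Grb10, 268 of H19 and 99.9 of Igf2. At E17.5 and E18.5 8 cells led by Olig2 and Olig1, genes of oligodendrocyte lineage, held 590 CPM of Ndn. These are values of few cells with no test.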
